A study of Homo sapiens with 18 samples.

Results

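The transcripts of the mitochondrial genome were followed in CAMA-1 and ZR-75-1 cells, both established oestrogen receptor-positive breast cancer lines, after 5 days with a CDK4/6 inhibitor. They are the 37 of 60656 gene rows whose symbol starts with MT-, namely 13 protein-coding, 2 ribosomal RNA (rRNA) and 22 transfer RNA (tRNA) genes. Wild-type cells, labelled as the parental lines, received abemaciclib at 500 nM, palbociclib at 500 nM or an equal volume of the solvent DMSO, with 3 libraries in each of the 6 groups. Both drugs block the kinases CDK4 and CDK6, which drive cells from G1 into S phase. RNA was read by 3′-end sequencing with a Lexogen QuantSeq kit, which starts from the poly(A) tail by oligo-dT priming. The study describes the replicates of its cell-line RNA-seq as separate cultures, and p-values measure the spread between their libraries.

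Human mitochondrial DNA is a small circle in which both strands are transcribed into long precursors that run through many genes. The tRNA genes punctuate these precursors, and their excision by dedicated nucleases releases most of the mRNAs and rRNAs. Every mRNA but MT-ND6 lies on one strand. The proteins are core subunits of respiratory complexes I, III and IV and of the ATP synthase (complex V), and the rRNAs build the mitochondrial ribosome that translates them. Most mitochondrial mRNAs receive a short poly(A) tail, whereas MT-ND6 is generally described as lacking a stable one. An oligo-dT kit therefore reports tailed or A-rich forms, and the level of a tRNA or of MT-ND6 in such a library is not the level of the mature molecule.

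All 37 identifiers, with version, matched GENCODE release 44 on GRCh38, from MT-TF at chrM:577-647 to MT-TP at chrM:15956-16023. The annotation puts 28 of them on the plus strand and 9 on the minus strand, the latter being MT-ND6 and the tRNA genes MT-TQ, MT-TA, MT-TN, MT-TC, MT-TY, MT-TS1, MT-TE and MT-TP. Mitochondrial genes have no introns, and each member is a single exon. The 18 libraries held 2308442 to 4146549 counts, of which 11936622 in all fell on members. A count was present for 35 members, and MT-TK and MT-TR, the lysine and arginine tRNA genes, had none in any library. In CAMA-1 28 members had a mean of at least 10 counts, and in ZR-75-1 27, the exception being the cysteine tRNA gene MT-TC. The 9 members under that mean in both lines, MT-TW, MT-TA, MT-TN, MT-TK, MT-TG, MT-TR, MT-TH, MT-TL2 and MT-TE, had at most 13 counts in a library. The filter on low counts passed 28 members, and the others are not described further.

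Several sequences show what an oligo-dT 3′-end kit can meet on these transcripts. They were read from the GRCh38 genome, 5′ to 3′ along each gene's own strand. The first pair are the most counted tRNA genes of each strand, to which the results return: MT-TF for phenylalanine (chrM:577-647, plus strand) and MT-TP for proline (chrM:15956-16023, minus strand), with the longest runs of A in capitals. Those runs have 4 bases in MT-TF and 3 in MT-TP.
MT-TF: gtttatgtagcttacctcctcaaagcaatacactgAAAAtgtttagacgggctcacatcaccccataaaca
MT-TP: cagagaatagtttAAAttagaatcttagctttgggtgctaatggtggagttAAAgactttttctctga

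The last 30 bases of 4 mRNAs show how their reading frames end, with the stop codon or the bases present of an incomplete one in capitals. MT-ND1 (chrM:3307-4262, plus strand) and MT-CYB (chrM:14747-15887, plus strand) need the poly(A) tail to complete the stop codon. MT-ATP8 (chrM:8366-8572, plus strand) carries a complete one, and MT-ND6 (chrM:14149-14673, minus strand) ends on AGG.
MT-ND1: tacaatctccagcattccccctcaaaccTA
MT-CYB: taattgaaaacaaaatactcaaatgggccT
MT-ATP8: tcgcttcattcattgcccccacaatccTAG
MT-ND6: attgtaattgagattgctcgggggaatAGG

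MT-ATP8 and MT-ATP6 share 1 mRNA, as do MT-ND4L and MT-ND4, and their reading frames overlap. The last bases of the upstream gene follow, with the bases shared with the downstream gene in capitals. The first pair shares 46 bases (chrM:8527-8572) and the second 7 (chrM:10760-10766), and how the authors counted reads in a shared stretch was not stated.
MT-ATP8: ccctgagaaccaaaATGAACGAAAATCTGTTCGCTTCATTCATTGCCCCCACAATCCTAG
MT-ND4L: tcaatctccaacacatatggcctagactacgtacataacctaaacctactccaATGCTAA

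Mitochondrial transcripts took a larger share of the RNA counts in CAMA-1 after either drug, and no such shift was seen in ZR-75-1. In CAMA-1 they made up 16.6, 15.8 and 14.8% of all counts in the DMSO libraries, 25.0, 23.4 and 26.1% with abemaciclib and 23.0, 24.9 and 22.9% with palbociclib. Every drug library lay above every DMSO library. The mean was 15.7% ± 0.866 (SD, n = 3) with DMSO, 24.8% ± 1.37 with abemaciclib and 23.6% ± 1.15 with palbociclib, higher by 9.07 and 7.87 percentage points. In ZR-75-1 the shares were 20.5, 17.3 and 22.6% with DMSO, 19.6, 18.5 and 20.5% with abemaciclib and 19.8, 18.5 and 18.7% with palbociclib. Here the groups overlapped, and the means of 20.2% ± 2.68, 19.5% ± 1.01 and 19.0% ± 0.701 differed by less than the spread of the DMSO libraries. Exact two-sided permutation tests of 3 against 3 libraries gave p = 0.1 for each drug in CAMA-1, the smallest value this design allows, and p = 0.8 and 0.6 in ZR-75-1. Adjusted over these 4 tests they were 0.2, 0.2, 0.8 and 0.8. These are shares of counts in bulk RNA, so more mitochondrial RNA per cell, less of other RNA and more cells rich in it cannot be told apart.

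**Figure D1:**
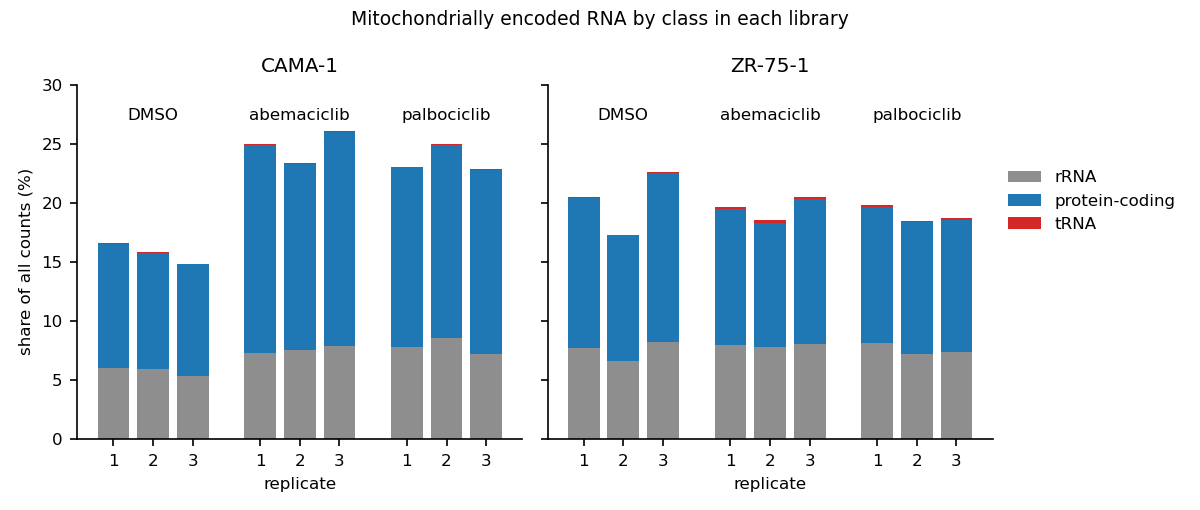
Share of all counts (%, vertical axis) taken by mitochondrially encoded rRNA, mRNA and tRNA in each library of CAMA-1 (left) and ZR-75-1 (right), with replicates along the horizontal axis. In CAMA-1 the drug libraries stand between 22.9 and 26.1%, above the DMSO libraries at 14.8 to 16.6%, whereas the groups of ZR-75-1 overlap.

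The composition of the mitochondrial counts shifted towards mRNA in CAMA-1 and towards rRNA in ZR-75-1. Protein-coding transcripts made up 63.2% ± 0.815 of the mitochondrial counts in CAMA-1 with DMSO, 69.2% ± 1.73 with abemaciclib and 66.5% ± 1.43 with palbociclib. In ZR-75-1 they made up 62.3% ± 1.03, 58.5% ± 1.62 and 59.5% ± 1.38. The rRNAs, most of them MT-RNR2, made up 36.5% ± 0.760, 30.5% ± 1.72 and 33.2% ± 1.41 in CAMA-1 against 37.3% ± 1.04, 40.7% ± 1.53 and 39.9% ± 1.26 in ZR-75-1. In these class shares no drug group overlapped its DMSO group, and each exact p was 0.1. Complex I mRNAs went from 24.0% ± 0.621 to 28.0% ± 0.634 and 26.1% ± 0.844 in CAMA-1, and complex IV mRNAs from 15.2% ± 0.368 to 17.5% ± 0.393 and 17.4% ± 0.339. In ZR-75-1 complex V mRNAs went from 13.4% ± 0.496 to 10.6% ± 0.694 and 11.6% ± 0.368, and complex III mRNA, which is MT-CYB alone, from 5.96% ± 0.309 to 3.84% ± 0.208 and 5.19% ± 0.268. The tRNA genes held under 1% of mitochondrial counts in every group. The highest mean was 0.843% ± 0.0939 with abemaciclib in ZR-75-1, against 0.398% ± 0.0382 with DMSO there. Most of this was the single gene MT-TF, which held 0.745% and 0.283%. In CAMA-1 the tRNA genes held 0.304% ± 0.0560 of mitochondrial counts with DMSO, 0.346% ± 0.0111 with abemaciclib and 0.317% ± 0.0198 with palbociclib. Exact permutation p was 0.4 and 0.8 for these. The part of all counts on tRNA genes went from 0.0479% ± 0.00989 to 0.0859% ± 0.00226 and 0.0750% ± 0.00844 in CAMA-1. In ZR-75-1 it went from 0.0800% ± 0.0125 to 0.164% ± 0.00966 and 0.117% ± 0.0276. These parts of all counts were again without overlap in both lines, with exact permutation p = 0.1.

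The libraries carried the markers of luminal breast epithelium, with 7 of 7 detected at a summed 0.493 to 0.659% of counts per group. Of 10 stromal, immune and endothelial markers, 4 to 7 were at 0 in every library of a group. Their sum was 46 to 109 counts per library, mostly COL1A1 (26 to 108). COL3A1 had 2, 5 and 6 counts in CAMA-1 with DMSO, 24, 20 and 12 with abemaciclib and 18, 21 and 20 with palbociclib. The nuclear-retained RNAs MALAT1 and NEAT1 together took 1.61, 1.63 and 1.50% of counts in CAMA-1 with DMSO, abemaciclib and palbociclib, and 0.980, 0.842 and 0.459% in ZR-75-1. MALAT1 fell with palbociclib in ZR-75-1 by 1.16 ± 0.11 on the log2 scale. NEAT1 rose in CAMA-1 by 0.76 ± 0.11 (adjusted p = 1.9e-07) with abemaciclib and by 0.64 ± 0.11 (adjusted p = 6.4e-06) with palbociclib, alongside the mitochondrial transcripts, and in ZR-75-1 by 0.39 ± 0.10 (adjusted p = 0.0013) with abemaciclib. The part of these nuclear RNAs in the values of those libraries was not tested.

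Each transcript was then tested within its line on CPM, counts scaled to a common library size after TMM normalisation, by edgeR's quasi-likelihood test over 9 libraries, and called changed at a Benjamini-Hochberg adjusted p under 0.05 over all genes tested. In CAMA-1 with abemaciclib 22 of 28 tested members rose and 2 fell, where 20.3% and 20.1% of the 11053 genes tested did so. Palbociclib gave 22 rises and 0 falls, against 18.4% and 18.7% of all genes. At an unadjusted p under 0.05 the test also gave 0 falls with palbociclib, and DESeq2 gave 0. The median log2 fold change of the members was 0.80 with abemaciclib and 0.71 with palbociclib, and that of all genes was 0.0100 and 0.0011. Both drugs were compared with the same DMSO libraries, so the counts for one are not independent of those for the other. All 12 plus-strand mRNAs and both rRNAs rose with either drug. Of the 22 tested plus-strand members 20 rose with each drug and none fell, whereas the 6 of the minus strand gave 2 rises and 2 falls with abemaciclib, and 2 and 0 with palbociclib. No fall with abemaciclib was called without DMSO replicate 1 or without abemaciclib replicate 2. Scaling to the library total, in which mitochondrial counts themselves weigh, moved these fold changes by a median of -0.12 and -0.10. MT-TP then passed the test as lower with palbociclib as well.

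In ZR-75-1 the same transcripts split. With abemaciclib 4 of 28 rose (MT-TF, MT-TV, MT-ND1 and MT-CO1) and 8 fell (MT-TQ, MT-TS1, MT-ATP8, MT-ATP6, MT-ND4, MT-ND6, MT-CYB and MT-TP), against 17.9% and 18.3% of the 11017 genes tested. With palbociclib 4 rose (MT-TF, MT-TL1, MT-TM and MT-TS2) and 8 fell (MT-TD, MT-CO2, MT-ATP8, MT-ATP6, MT-ND4, MT-ND5, MT-ND6 and MT-CYB), against 14.5% and 13.4%. The median member moved by -0.17 and -0.041 on the log2 scale, beside -0.0037 and -0.0079 for all genes. The counts of rises were thus near the background. DESeq2 called 2 rises and 5 falls with abemaciclib, and 3 and 4 with palbociclib. These counts leaned on single libraries. Without DMSO replicate 3, abemaciclib gave 8 rises and 5 falls and palbociclib 2 falls, and without DMSO replicate 2 abemaciclib gave 2 rises. Without abemaciclib replicate 2 the falls with that drug were 5, and without palbociclib replicate 2 or 3 those with palbociclib were 3 or 5.

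**Figure D2:**
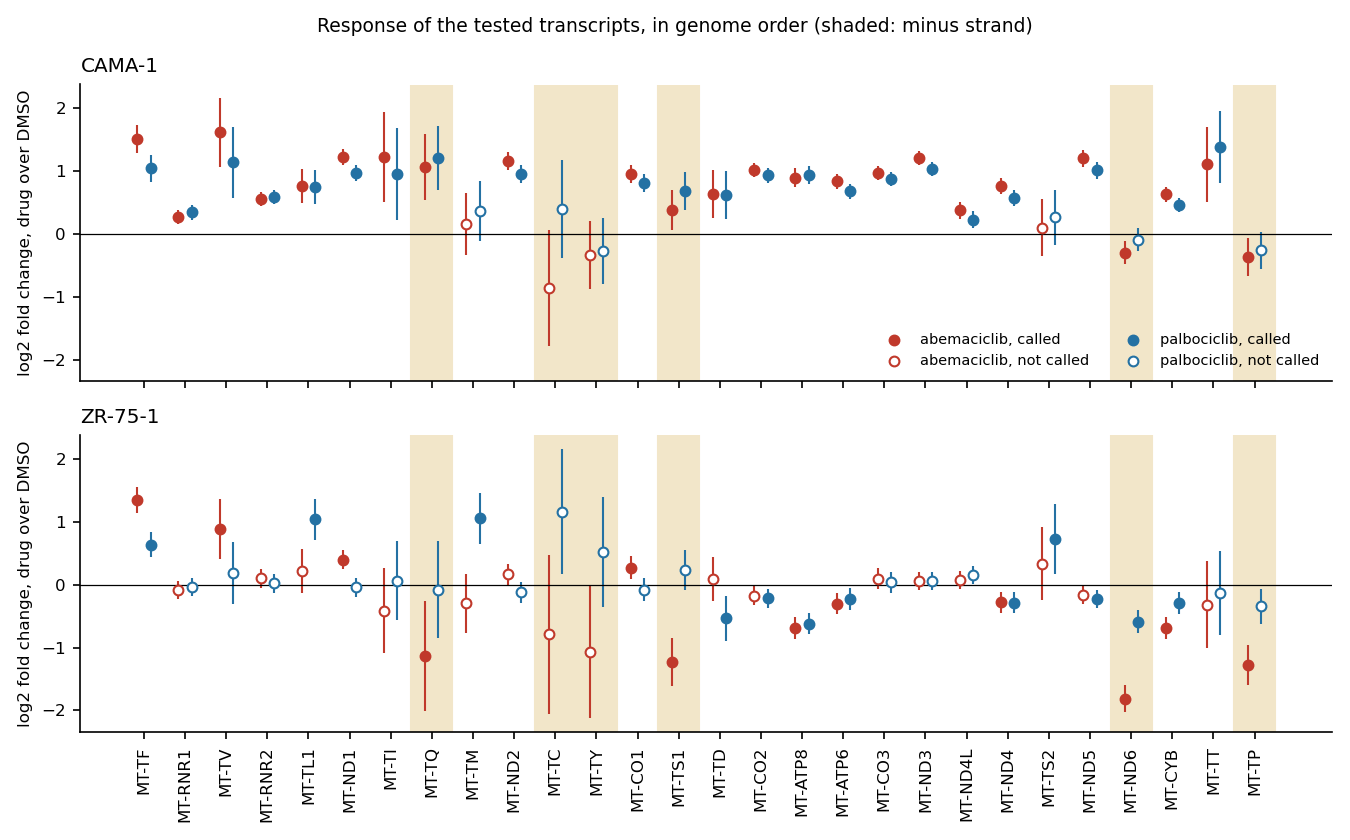
Log2 fold change of drug over DMSO with its 95% confidence interval (vertical axis) for the 28 tested transcripts in genome order (horizontal axis), in CAMA-1 (top) and ZR-75-1 (bottom). Filled points passed the test and shaded columns mark minus-strand genes. In CAMA-1 all plus-strand mRNAs lie above 0, whereas in ZR-75-1 they scatter around 0 and MT-ND6 falls to -1.81 with abemaciclib.

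Complex I, the NADH dehydrogenase that feeds electrons into the chain, has 7 mitochondrial subunits. Their shares of mitochondrial counts are given in the order DMSO, abemaciclib and palbociclib (means of 3 libraries, with the range of the 6 SDs). MT-ND3 and MT-ND4 were the most counted of them. MT-ND3 took 6.94, 9.29 and 8.79% in CAMA-1 against 10.3, 11.1 and 11.3% in ZR-75-1 (SD 0.0930 to 0.557). Its log2 fold change in CAMA-1 was 1.20 ± 0.054 (adjusted p = 7.9e-22) with abemaciclib, the smallest p among the members there, and 1.03 ± 0.054 with palbociclib. In ZR-75-1 it was 0.060 ± 0.072 with abemaciclib and 0.050 ± 0.072 with palbociclib, neither called. MT-ND4 took 9.65, 9.52 and 8.91% in CAMA-1 against 9.78, 8.37 and 8.59% in ZR-75-1 (SD 0.238 to 0.560). It rose in CAMA-1 by 0.76 ± 0.061 with abemaciclib and 0.57 ± 0.061 with palbociclib on the log2 scale. In ZR-75-1 it fell with each drug, with log2 fold changes of -0.28 ± 0.084 and -0.29 ± 0.084. These calls held in 11 and 12 of 14 alternatives of the processing. The first was lost without DMSO replicate 3 (0.22) or abemaciclib replicate 2 (0.092) and the second without DMSO replicate 3 (0.19). Here and below, values in parentheses after a replicate are the adjusted p without that library of the line. Such lists name left-out libraries only, and some calls were also lost in settings over all libraries.

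MT-ND1 and MT-ND2 are the first mRNAs downstream of the rRNA genes. MT-ND1 held 2.30, 3.13 and 2.80% of mitochondrial counts in CAMA-1 against 2.18, 2.97 and 2.25% in ZR-75-1 (SD 0.0378 to 0.172), and MT-ND2 2.38, 3.11 and 2.88% and 2.98, 3.44 and 2.92% (SD 0.0163 to 0.331). MT-ND1 reached 3770.4, 3493 and 3086 CPM with DMSO in CAMA-1, 8315, 7275 and 8517 with abemaciclib and 6448, 7202 and 6614 with palbociclib. The 3 groups did not overlap, and the log2 fold changes came to 1.22 ± 0.062 (adjusted p = 4.2e-20) and 0.97 ± 0.062 (adjusted p = 7.6e-17). MT-ND1 in ZR-75-1 stood at 4432, 3629 and 5166 CPM with DMSO, 5765, 5173 and 6485 with abemaciclib and 4414, 4162 and 4239 with palbociclib. Abemaciclib libraries lay above both other groups there, which overlapped, with a log2 fold change of 0.40 ± 0.078 (adjusted p = 4.1e-05) for abemaciclib and -0.045 ± 0.078 for palbociclib, not called. MT-ND2 rose in CAMA-1 by 1.16 ± 0.071 and 0.95 ± 0.071, and gave uncalled values of 0.16 ± 0.081 and -0.12 ± 0.081 in ZR-75-1. The rest of the complex I mRNAs of the plus strand were less alike. MT-ND5, at 1.57, 2.09 and 1.95% in CAMA-1 against 1.67, 1.53 and 1.50% in ZR-75-1 (SD 0.0289 to 0.140), rose in CAMA-1 by 1.20 ± 0.064 and 1.01 ± 0.064. In ZR-75-1 its log2 fold change was -0.16 ± 0.072 with abemaciclib, not called, and -0.23 ± 0.072 with palbociclib, a fall whose call was lost without DMSO replicate 1 (0.086), DMSO replicate 3 (0.072), palbociclib replicate 2 (0.069) or palbociclib replicate 3 (0.093). MT-ND4L, at 0.997, 0.755 and 0.724% and 0.953, 1.03 and 1.12% (SD 0.0175 to 0.142), had the smallest rises of any plus-strand mRNA in CAMA-1, 0.37 ± 0.066 and 0.23 ± 0.066, the second not called without DMSO replicate 3 (0.07). The second call held in 12 of 14 alternatives. The share of MT-ND4L lay below that of every DMSO library in CAMA-1 with either drug. In ZR-75-1 it was not called with either.

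MT-ND6, the complex I subunit of the opposite strand, did not rise with the mitochondrial total in CAMA-1 and fell in ZR-75-1 with each drug. It held 0.136, 0.0636 and 0.0787% of mitochondrial counts in CAMA-1 against 0.103, 0.0303 and 0.0726% in ZR-75-1 (SD 0.00317 to 0.0132). In CAMA-1 it was at 230.3, 181 and 197 CPM with DMSO, 174, 148 and 169 with abemaciclib and 196, 207 and 166 with palbociclib. Abemaciclib libraries lay below all DMSO libraries and palbociclib libraries overlapped them. The log2 fold change was -0.30 ± 0.091 (adjusted p = 0.0062) with abemaciclib, a call lost without DMSO replicate 1 (adjusted p = 0.086) or abemaciclib replicate 2 (adjusted p = 0.060), and -0.091 ± 0.089 with palbociclib. In ZR-75-1 MT-ND6 was at 206, 184 and 234 CPM with DMSO, 66.6, 53.2 and 57.2 with abemaciclib and 133, 125 and 155 with palbociclib. The 3 groups were separate, with abemaciclib lowest. Its log2 fold change of -1.81 ± 0.10 (adjusted p = 1.7e-21) with abemaciclib was the smallest of any member in that comparison, and that with palbociclib was -0.59 ± 0.093 (adjusted p = 1.1e-06). Whether the authors' counting used strand was not stated, so counts from the precursor of the plus strand over MT-ND6 cannot be told apart from its own.

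Complex III passes electrons to cytochrome c and has 1 mitochondrial subunit, cytochrome b, encoded by MT-CYB. Its share was 8.83, 7.92 and 7.50% in CAMA-1 against 5.96, 3.84 and 5.19% in ZR-75-1 (SD 0.0881 to 0.309). Drug libraries lay below every DMSO library in both lines. In CPM MT-CYB rose in CAMA-1, by 0.63 ± 0.057 with abemaciclib and 0.45 ± 0.057 with palbociclib, less than most mRNAs. In ZR-75-1 it stood at 12501, 9264 and 14633 CPM with DMSO, 7565, 6681 and 8293 with abemaciclib and 11093, 9159 and 9385 with palbociclib. All abemaciclib libraries were below the DMSO libraries, and those of palbociclib overlapped them. The log2 fold changes came to -0.69 ± 0.088 (adjusted p = 3.8e-09) and -0.30 ± 0.088 (adjusted p = 0.0076). The second call held in 11 of 14 alternatives and was lost without DMSO replicate 3 (0.21) or palbociclib replicate 2 (0.065).

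Complex IV, the cytochrome c oxidase, has MT-CO1, MT-CO2 and MT-CO3 as its core. All 3 rose in CAMA-1 with both drugs, with log2 fold changes between 0.80 and 1.01. MT-CO2, which receives electrons from cytochrome c, held 5.39, 6.32 and 6.36% in CAMA-1 against 7.48, 6.87 and 6.86% in ZR-75-1 (SD 0.0362 to 0.370). Its share lay above all DMSO libraries in CAMA-1 and below them in ZR-75-1, where the log2 fold change of its CPM was -0.17 ± 0.076 with abemaciclib, not called, and -0.22 ± 0.076 with palbociclib, called lower but not without DMSO replicate 1 (0.085), DMSO replicate 3 (0.34), palbociclib replicate 2 (0.08) or palbociclib replicate 3 (0.091). That call of MT-CO2 held in 9 of 14 alternatives. MT-CO3 held 8.12, 9.26 and 9.19% and 5.74, 6.40 and 6.33% (SD 0.0897 to 0.350) and was not called in ZR-75-1. MT-CO1, the catalytic subunit, held only 1.71, 1.93 and 1.86% and 1.79, 2.26 and 1.84% (SD 0.0156 to 0.191) and rose in ZR-75-1 with abemaciclib (0.27 ± 0.091, adjusted p = 0.018), a call lost without DMSO replicate 2 (0.48) or abemaciclib replicate 3 (0.13). That call held in 11 of 14 alternatives. The nuclear copy of MT-CO1, MTCO1P12, received 25.5 counts per 100 of MT-CO1 over all libraries. The level of MT-CO1 is therefore less certain than that of its neighbours.

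Complex V makes ATP. MT-ATP6, its subunit a, was the most counted mRNA in CAMA-1, at 13.0, 13.5 and 12.9%, and held 10.3, 8.68 and 9.44% in ZR-75-1 (SD 0.529 to 0.717). MT-ATP8, a small membrane subunit on the same mRNA, held 2.14, 2.31 and 2.53% and 3.09, 1.97 and 2.12% (SD 0.0611 to 0.306). In CAMA-1 MT-ATP8 was at 3279.9, 3111 and 3199 CPM with DMSO, 6126, 5316 and 6375 with abemaciclib and 6233, 7083 and 5011 with palbociclib. Both drugs raised it without overlap, by 0.89 ± 0.072 with abemaciclib and 0.93 ± 0.072 with palbociclib on the log2 scale. In ZR-75-1 it was at 5993, 5449 and 7242 CPM with DMSO, 4030.0, 3291 and 4256 with abemaciclib and 4762, 3492 and 3873 with palbociclib. Every drug library there was below every DMSO library, and the log2 fold changes came to -0.69 ± 0.085 (adjusted p = 1.3e-09) and -0.62 ± 0.085 (adjusted p = 3.9e-08), the latter the lowest of any member with palbociclib. MT-ATP6 moved the same way by less, with 0.83 ± 0.059 with abemaciclib and 0.68 ± 0.059 with palbociclib in CAMA-1 and -0.30 ± 0.085 with abemaciclib and -0.23 ± 0.085 with palbociclib in ZR-75-1, all called. The calls of MT-ATP6 in ZR-75-1 held in 11 of 14 alternatives with abemaciclib and 8 of 14 with palbociclib. With abemaciclib the call was lost without DMSO replicate 3 (0.2) or abemaciclib replicate 2 (0.057). With palbociclib it was lost without DMSO replicate 1 (0.087), DMSO replicate 3 (0.62), palbociclib replicate 1 (0.053), palbociclib replicate 2 (0.093) or palbociclib replicate 3 (0.067).

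**Figure D3:**
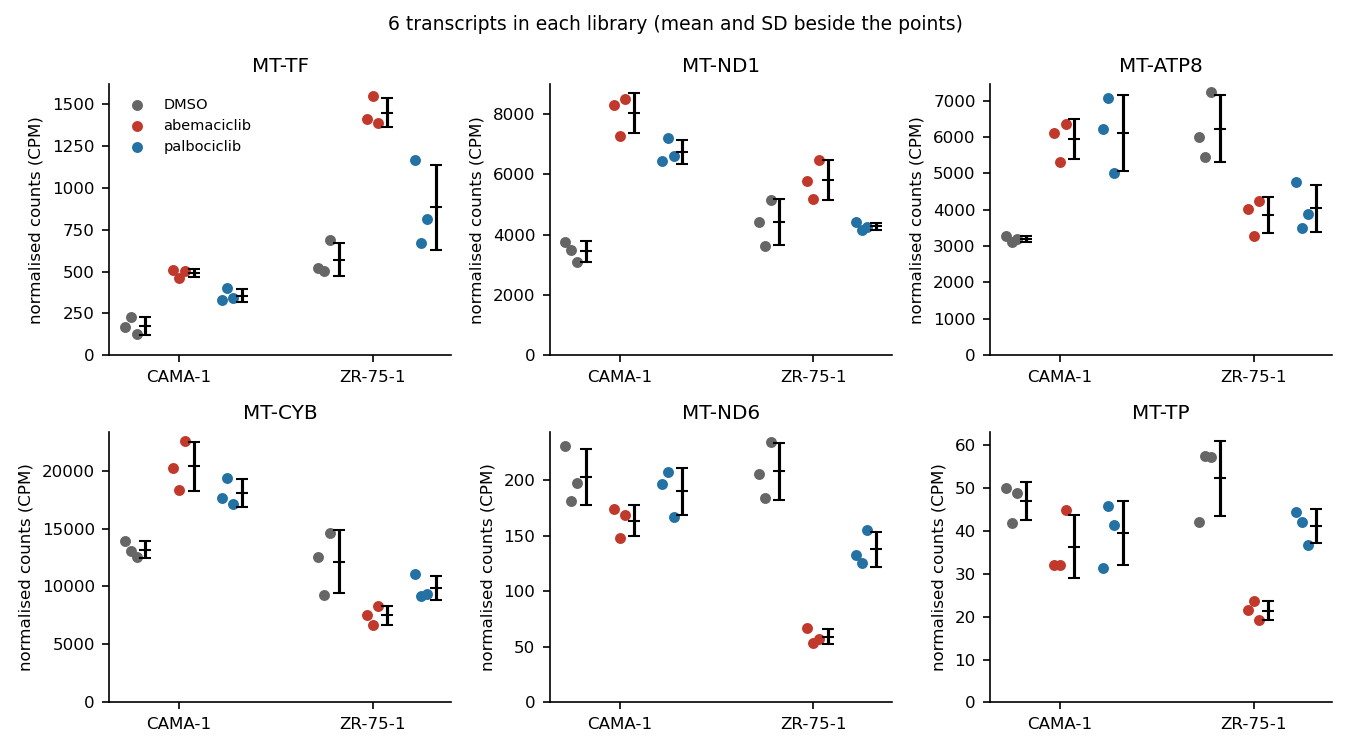
Normalised counts (CPM, vertical axis) of 6 mitochondrial transcripts in each library of the 6 groups (horizontal axis), with the mean and SD of 3 libraries beside the points. MT-TF rises with abemaciclib in both lines, MT-ATP8 and MT-CYB rise in CAMA-1 and fall in ZR-75-1, and MT-ND6 falls to 53.2 to 66.6 CPM with abemaciclib in ZR-75-1.

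The large rRNA MT-RNR2 was the most counted member of all, at 31.7, 27.1 and 29.4% of mitochondrial counts in CAMA-1 against 31.7, 35.2 and 34.1% in ZR-75-1 (SD 0.690 to 1.53). The small rRNA MT-RNR1 held 4.82, 3.39 and 3.78% and 5.61, 5.45 and 5.79% (SD 0.0947 to 0.274). Both rose in CPM in CAMA-1, MT-RNR2 by 0.55 ± 0.055 with abemaciclib and 0.58 ± 0.055 with palbociclib and MT-RNR1 by 0.27 ± 0.057 with abemaciclib and 0.34 ± 0.057 with palbociclib, but by less than most mRNAs, so that their shares lay below those of every DMSO library. Neither was called in ZR-75-1, where the log2 fold changes lay between -0.090 and 0.10. There were 6.57 ± 0.105 MT-RNR2 counts per MT-RNR1 count in CAMA-1 with DMSO, 7.99 ± 0.132 with abemaciclib and 7.79 ± 0.159 with palbociclib. In ZR-75-1 the ratio was 5.65 ± 0.175, 6.47 ± 0.107 and 5.89 ± 0.0679. The drug groups lay above DMSO in both lines without overlap (exact permutation p = 0.1 for each).

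MT-TF, the phenylalanine tRNA gene at the start of the plus-strand rRNA unit, was the only member called higher in all 4 comparisons with DMSO. It was also the most counted tRNA gene in 6 of 6 groups, with 0.117, 0.192 and 0.148% of mitochondrial counts in CAMA-1 against 0.283, 0.745 and 0.462% in ZR-75-1 (SD 0.00673 to 0.107). In CAMA-1 it stood at 169, 230.1 and 126 CPM with DMSO, 508, 464 and 502 with abemaciclib and 328, 401 and 339 with palbociclib. The groups were separate, and the log2 fold changes came to 1.51 ± 0.11 (adjusted p = 1.8e-15) and 1.04 ± 0.11 (adjusted p = 1.2e-10). MT-TF in ZR-75-1 was at 521, 506 and 686 CPM with DMSO, 1411, 1547 and 1387 with abemaciclib and 1167, 673 and 814 with palbociclib. Abemaciclib libraries lay above all others, and those of palbociclib overlapped DMSO, with log2 fold changes of 1.34 ± 0.10 (adjusted p = 7.9e-17), the largest of any member there, and 0.63 ± 0.10 (adjusted p = 1.1e-06). Relative to the MT-RNR1 gene directly downstream, MT-TF gave 2.41 ± 0.631 counts per 100 in CAMA-1 with DMSO, 5.66 ± 0.293 with abemaciclib and 3.91 ± 0.287 with palbociclib. The ratio in ZR-75-1 was 5.05 ± 0.453, 13.6 ± 1.03 and 7.94 ± 1.55, so that all 12 drug libraries exceeded their DMSO libraries (exact permutation p = 0.1 for each).

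The remaining plus-strand tRNA genes had few counts, and their values carry wider errors. MT-TV, for valine, lies between the rRNA genes and held 0.00593, 0.00994 and 0.00771% of mitochondrial counts in CAMA-1 against 0.00703, 0.0138 and 0.00850% in ZR-75-1. It had 34, 36 and 14 counts in the DMSO libraries of CAMA-1, 109, 42 and 94 with abemaciclib and 80, 75 and 43 with palbociclib. As CPM these were 11.3, 12.6 and 3.31, then 29.0, 18.4 and 29.7, then 19.5, 21.6 and 14.8, with no overlap of either drug with DMSO. Its log2 fold change of 1.61 ± 0.27 (adjusted p = 4.4e-06) with abemaciclib was the largest of any member, and that with palbociclib was 1.13 ± 0.28. In ZR-75-1 it rose with abemaciclib (0.88 ± 0.24) and was not called with palbociclib (0.18 ± 0.25). The former call held in 12 of 14 alternatives and was lost without DMSO replicate 2 (0.059). With palbociclib in CAMA-1 the call of MT-TV held in 13 of 14. MT-TT, the threonine tRNA gene behind MT-CYB, held 0.00403, 0.00484 and 0.00629% of mitochondrial counts in CAMA-1 against 0.00388, 0.00317 and 0.00366% in ZR-75-1. It had 12, 26 and 21 counts with DMSO in CAMA-1, 50, 22 and 46 with abemaciclib and 73, 54 and 35 with palbociclib. The corresponding CPM were 3.97, 9.06 and 4.97, then 13.3, 9.66 and 14.5, then 17.8, 15.6 and 12.1, and both drug groups lay above DMSO. Its 1.37 ± 0.28 (adjusted p = 0.00012) was the largest log2 fold change with palbociclib in CAMA-1. MT-TT was not called in ZR-75-1 with either drug. MT-TI (isoleucine) held 0.00248, 0.00334 and 0.00296% of mitochondrial counts in CAMA-1 against 0.00433, 0.00338 and 0.00486% in ZR-75-1, and MT-TD (aspartate) 0.0127, 0.0113 and 0.0121% of mitochondrial counts in CAMA-1 against 0.0161, 0.0179 and 0.0118% in ZR-75-1. MT-TI rose in CAMA-1 by 1.22 ± 0.36 with abemaciclib and 0.95 ± 0.36 with palbociclib, and MT-TD by 0.63 ± 0.19 with abemaciclib and 0.62 ± 0.19 with palbociclib. In ZR-75-1 MT-TI was not called with either drug, and MT-TD fell with palbociclib (-0.53 ± 0.18). In CAMA-1 with palbociclib MT-TI was called in 8 of 14 alternatives. Its call was lost without DMSO replicate 2 (0.12), DMSO replicate 3 (0.15), palbociclib replicate 1 (0.07) or palbociclib replicate 2 (0.096). Those of MT-TD in CAMA-1 were lost without DMSO replicate 1 (0.076) or abemaciclib replicate 3 (0.12) with abemaciclib and without DMSO replicate 1 (0.084) with palbociclib, and its fall in ZR-75-1 without DMSO replicate 3 (0.26) or palbociclib replicate 2 (0.13).

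MT-TL1, the leucine tRNA gene between MT-RNR2 and MT-ND1, held 0.0748, 0.0734 and 0.0764% of mitochondrial counts in CAMA-1 against 0.0202, 0.0248 and 0.0445% in ZR-75-1 (SD 0.00583 to 0.0227). It rose in CAMA-1 by 0.76 ± 0.14 with abemaciclib and 0.75 ± 0.13 with palbociclib. In ZR-75-1 it stood at 32.2, 30.2 and 63.0 CPM with DMSO, 48.9, 56.2 and 38.7 with abemaciclib and 109, 78.3 and 68.1 with palbociclib. Palbociclib libraries alone stood above DMSO, with a log2 fold change of 1.04 ± 0.16 (adjusted p = 8.1e-07) against 0.22 ± 0.18 with abemaciclib. MT-TM, for methionine, with 0.00872, 0.00554 and 0.00682% of mitochondrial counts in CAMA-1 against 0.00801, 0.00679 and 0.0176% in ZR-75-1, was also highest with palbociclib in ZR-75-1. It was at 15.0, 12.6 and 21.6 CPM with DMSO, 14.2, 10.8 and 15.0 with abemaciclib and 43.9, 28.3 and 28.7 with palbociclib. It rose with palbociclib (1.05 ± 0.20, adjusted p = 4.1e-05), gave -0.29 ± 0.23 with abemaciclib, and was called with neither drug in CAMA-1. MT-TS2, for serine, with 0.0127, 0.00806 and 0.00921% of mitochondrial counts in CAMA-1 against 0.00447, 0.00603 and 0.00798% in ZR-75-1, rose with palbociclib in ZR-75-1 as well (0.72 ± 0.28), a call lost without DMSO replicate 2 (0.35) or palbociclib replicate 1 (0.21). The call of MT-TS2 held in 11 of 14 alternatives. The palbociclib libraries of ZR-75-1 are those in which MALAT1 was lower (-1.16 ± 0.11 on the log2 scale). Its part in these tRNA values was not tested.

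With abemaciclib in ZR-75-1, 3 of the 5 tested minus-strand tRNA genes fell along with MT-ND6, where 18.3% of all genes fell. MT-TP, for proline, was the most counted of them, with 0.0315, 0.0141 and 0.0164% of mitochondrial counts in CAMA-1 against 0.0265, 0.0110 and 0.0216% in ZR-75-1. It was at 50.0, 41.8 and 48.9 CPM with DMSO in CAMA-1, 32.2, 32.0 and 44.9 with abemaciclib and 31.4, 45.8 and 41.4 with palbociclib. The groups overlapped. Its log2 fold change was -0.37 ± 0.15 (adjusted p = 0.049) with abemaciclib and -0.26 ± 0.15 with palbociclib. The abemaciclib call held in 5 of 14 alternatives of the processing. It was lost without DMSO replicate 1 (0.13), DMSO replicate 3 (0.11), abemaciclib replicate 1 (0.23) or abemaciclib replicate 2 (0.17). In ZR-75-1 MT-TP was at 42.1, 57.5 and 57.3 CPM with DMSO, 21.6, 23.6 and 19.2 with abemaciclib and 44.5, 42.1 and 36.8 with palbociclib. Abemaciclib libraries were the lowest without overlap (-1.28 ± 0.16, adjusted p = 1.3e-09), and palbociclib gave -0.35 ± 0.14 (adjusted p = 0.058). MT-TS1, for serine, held 0.0166, 0.0126 and 0.0165% of mitochondrial counts in CAMA-1 against 0.0155, 0.00682 and 0.0192% in ZR-75-1. It rose in CAMA-1 (0.38 ± 0.16 and 0.68 ± 0.15) and fell in ZR-75-1 with abemaciclib (-1.23 ± 0.19, adjusted p = 3e-07), and gave 0.23 ± 0.16 with palbociclib there. Its rise with abemaciclib in CAMA-1 held in 5 of 14 alternatives of the processing and was lost without DMSO replicate 1 (0.05), DMSO replicate 2 (0.17), DMSO replicate 3 (0.083), abemaciclib replicate 2 (0.077) or abemaciclib replicate 3 (0.18). MT-TQ, for glutamine, held 0.00475, 0.00582 and 0.00681% of mitochondrial counts in CAMA-1 against 0.00361, 0.00166 and 0.00373% in ZR-75-1. It rose in CAMA-1 (1.06 ± 0.26 and 1.20 ± 0.25) and fell with abemaciclib in ZR-75-1 (-1.14 ± 0.44, adjusted p = 0.034), where it was not called with palbociclib (-0.081 ± 0.38). That fall held in 9 of 14 alternatives. It was lost without DMSO replicate 1 (0.23), DMSO replicate 3 (0.051), abemaciclib replicate 2 (0.16) or abemaciclib replicate 3 (0.18).

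MT-TY and MT-TC, both of the minus strand, were called in no comparison with DMSO. MT-TY, for tyrosine, held 0.00757, 0.00347 and 0.00389% of mitochondrial counts in CAMA-1 against 0.00200, 0.00101 and 0.00313% in ZR-75-1. It had 29, 36 and 49 counts with DMSO in CAMA-1, 36, 20 and 26 with abemaciclib and 33, 35 and 29 with palbociclib. As CPM these were 9.60, 12.6 and 11.6, then 9.57, 8.78 and 8.22, then 8.03, 10.1 and 10.0. Abemaciclib libraries lay just below DMSO and palbociclib libraries overlapped it, with log2 fold changes of -0.34 ± 0.27 (adjusted p = 0.33) and -0.27 ± 0.26 (adjusted p = 0.45), the latter the lowest with palbociclib in CAMA-1. MT-TC, for cysteine, held 0.00300, 0.00101 and 0.00242% of mitochondrial counts in CAMA-1 against 0.00111, 0.000652 and 0.00269% in ZR-75-1. It had 14, 13 and 18 counts with DMSO in CAMA-1, 5, 8 and 9 with abemaciclib and 26, 22 and 14 with palbociclib, or 4.63, 4.53 and 4.26, then 1.33, 3.51 and 2.85, then 6.33, 6.34 and 4.83 CPM. Abemaciclib libraries were lowest and palbociclib libraries highest, yet with so few counts the log2 fold changes of -0.86 ± 0.45 (adjusted p = 0.13) and 0.40 ± 0.39 (adjusted p = 0.46) did not pass. In ZR-75-1 MT-TC had 4, 7 and 10 counts with DMSO, 4, 2 and 5 with abemaciclib and 14, 18 and 19 with palbociclib, or 1.28, 2.10 and 3.37, then 1.29, 0.673 and 1.92, then 3.82, 5.92 and 5.46 CPM. Palbociclib libraries were highest there, and its log2 fold change, the largest with palbociclib in that line, was 1.16 ± 0.49 (adjusted p = 0.072), against -0.79 ± 0.63 (adjusted p = 0.35) with abemaciclib.

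The balance of counts between minus-strand and plus-strand genes moved the same way in both lines. MT-ND6 supplied most of the minus-strand counts. With DMSO it held 0.136% of mitochondrial counts in CAMA-1 and 0.103% in ZR-75-1, where all minus-strand members held 0.200% and 0.153%. Strand here is that of the annotated gene, because the strand setting of the authors' counting was not stated. The ratio is thus not a measure of RNA made from each strand. Minus-strand members gave 2.09, 1.81 and 2.13 counts per 1000 plus-strand counts in CAMA-1 with DMSO, 1.01, 1.02 and 1.01 with abemaciclib and 1.28, 1.27 and 1.23 with palbociclib. The ZR-75-1 libraries gave 1.41, 1.70 and 1.49 with DMSO, 0.566, 0.513 and 0.481 with abemaciclib and 1.16, 1.24 and 1.34 with palbociclib. Abemaciclib libraries were lowest, palbociclib libraries intermediate and DMSO libraries highest in each line, without overlap. The means went from 2.01 ± 0.172 (SD, n = 3) to 1.01 ± 0.00917 and 1.26 ± 0.0267 in CAMA-1 and from 1.54 ± 0.150 to 0.520 ± 0.0428 and 1.25 ± 0.0875 in ZR-75-1 (exact permutation p = 0.1 for each drug against DMSO). In CAMA-1 the minus-strand part of all counts was 0.0315% ± 0.00295, 0.0251% ± 0.00121 and 0.0298% ± 0.00182, while the plus-strand part went from 15.7% ± 0.865 to 24.8% ± 1.37 and 23.6% ± 1.15. In ZR-75-1 it was 0.0307% ± 0.00263, 0.0102% ± 0.000848 and 0.0236% ± 0.00116, while the plus-strand part stayed within the range of its DMSO libraries.

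**Figure D4:**
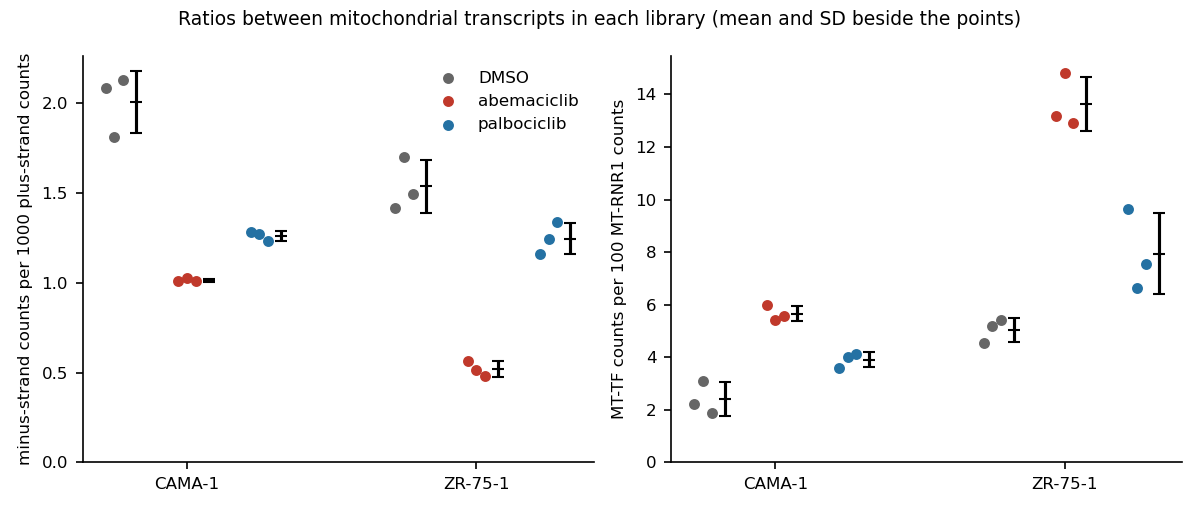
Minus-strand counts per 1000 plus-strand counts (left) and MT-TF counts per 100 MT-RNR1 counts (right) in each library of both lines, with the mean and SD beside the points. In each line the first ratio is highest with DMSO and lowest with abemaciclib, and the second is lowest with DMSO and highest with abemaciclib.

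The genes that share an mRNA did not keep a fixed ratio of counts. MT-ATP8 gave 16.4 ± 0.647 counts per 100 of MT-ATP6 in CAMA-1 with DMSO, 17.2 ± 0.539 with abemaciclib and 19.6 ± 3.23 with palbociclib (exact permutation p = 0.3 for each). In ZR-75-1 it gave 30.2 ± 3.10, 22.7 ± 0.646 and 22.6 ± 3.76, and every drug library was below every DMSO library (exact permutation p = 0.1). MT-ND4L gave 10.3 ± 0.565 counts per 100 of MT-ND4 in CAMA-1, then 7.95 ± 0.890 and 8.14 ± 0.158 (exact permutation p = 0.1 for each). In ZR-75-1 this ratio went the other way, from 9.77 ± 1.12 to 12.5 ± 2.57 (exact permutation p = 0.2) and 13.0 ± 0.193 (exact permutation p = 0.1). Of the bases printed above for these pairs, only those in capitals belong to both genes, 46 for the first pair and 7 for the second.

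Over single members, the share of mitochondrial counts lay above every DMSO library for 8 and below for 10 of 28 with abemaciclib in CAMA-1, and for 7 and 8 with palbociclib. In ZR-75-1 the counts were 8 and 8 of 27 with abemaciclib and 8 and 8 with palbociclib. The shares of a library add up to 100%, so a higher share of any member lowers others. These counts are therefore not of separate shifts, and no such count over all genes was made for comparison. None of the 110 exact permutation tests of these shares could go below p = 0.1, and the smallest adjusted value was 0.169. The shares of MT-CYB and MT-ND6 lay below DMSO in all 4 comparisons, and that of MT-ND3 above it in all 4. With palbociclib those of MT-ND2, MT-ND4L, MT-CO2 and MT-RNR2 lay beyond DMSO on opposite sides in the 2 lines.

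Abemaciclib and palbociclib were compared directly at the same dose and time. In CAMA-1 2 of 28 members were higher with abemaciclib, MT-TF (0.47 ± 0.10, adjusted p = 0.0043) and MT-ND1 (0.25 ± 0.061, adjusted p = 0.013), and 0 were lower, where 0.796% and 1.53% of all genes were called higher and lower. At an unadjusted p under 0.05 edgeR gave 10 higher and 3 lower, and DESeq2 called 0. The count of members higher ranged from 0 without palbociclib replicate 1 to 7 without abemaciclib replicate 2, and was 4 without palbociclib replicate 2. The 95% interval of the difference for MT-RNR2 ran from -0.14 to 0.079, and for MT-CO2 from -0.030 to 0.20, on the log2 scale. In ZR-75-1 6 were higher with abemaciclib and 8 lower, beside 5.23% and 7.94% of all genes. The higher ones were MT-TF, MT-TV, MT-ND1, MT-ND2, MT-CO1 and MT-TD, and the lower ones MT-TL1, MT-TM, MT-TC, MT-TY, MT-TS1, MT-ND6, MT-CYB and MT-TP. Without abemaciclib replicate 3 or palbociclib replicate 2 the higher ones numbered 3. Among the largest differences were MT-ND6 at -1.22 ± 0.11 (adjusted p = 1.3e-13), MT-TS1 at -1.46 ± 0.18 (adjusted p = 9.9e-09) and MT-TC at -1.95 ± 0.55 (adjusted p = 0.011). Of the 6 tested minus-strand members 5 were lower with abemaciclib, where 7.94% of all genes were, and among them MT-TY was called in 8 of 14 alternatives and MT-TC in 11 of 14 alternatives. MT-CYB differed by -0.40 ± 0.088 (adjusted p = 0.00087), a call that DESeq2 did not give (adjusted p = 0.2), as it did not for MT-TL1 (adjusted p = 0.13). DESeq2 called 3 higher and 5 lower in all. MT-TV, MT-ND2 and MT-CO1 were called in 9, 11 and 12 of 14 alternatives. Each of them also lost its call in a setting over all libraries. For MT-ND1, MT-ND2 and MT-CO1 the differences were 0.44 ± 0.078, 0.28 ± 0.081 and 0.34 ± 0.091. The calls of MT-TC, MT-ND2 and MT-CO1 were lost without abemaciclib replicate 1 (0.054), abemaciclib replicate 2 (0.091) or palbociclib replicate 2 (0.058), without abemaciclib replicate 3 (0.24) or palbociclib replicate 2 (0.062) and without abemaciclib replicate 3 (0.067), in that order, with the adjusted p in parentheses. Among the tRNA genes MT-TV was not called without abemaciclib replicate 2 (0.22), palbociclib replicate 2 (0.15) or palbociclib replicate 3 (0.22), MT-TD without abemaciclib replicate 3 (0.081) or palbociclib replicate 2 (0.095), and MT-TY without abemaciclib replicate 1 (0.085), abemaciclib replicate 2 (0.12), palbociclib replicate 1 (0.072), palbociclib replicate 2 (0.053) or palbociclib replicate 3 (0.053). MT-ATP8, called lower with each drug, differed by -0.067 ± 0.085, with a 95% interval from -0.24 to 0.10.

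The response itself was compared between lines by an interaction test over all 18 libraries, with CAMA-1's log2 fold change subtracted from that of ZR-75-1. With abemaciclib 20 of 28 members responded lower in ZR-75-1 and 0 higher, and with palbociclib 17 and 0. Of all genes 10.0% were lower and 8.19% higher in this sense with abemaciclib, and 10.3% and 10.0% with palbociclib. At an unadjusted p under 0.05 edgeR gave 0 and 1 higher, and DESeq2 0 and 0. Without CAMA-1 palbociclib replicate 2 there was 1 member higher with palbociclib, and without ZR-75-1 DMSO replicate 3 there were 2. The median difference was -0.92 and -0.87, against -0.033 and -0.015 for all genes. MT-ATP8 differed most among the mRNAs, by -1.61 ± 0.12 (adjusted p = 1.8e-16) with abemaciclib and -1.59 ± 0.12 (adjusted p = 4.1e-16) with palbociclib. MT-TF, called higher with each drug in each line, did not pass, at -0.19 ± 0.16 (adjusted p = 0.48) and -0.43 ± 0.17 (adjusted p = 0.053). The interval for its abemaciclib difference ran from -0.52 to 0.14. MT-ND4L had the smallest differences of the mRNAs, -0.33 ± 0.10 (adjusted p = 0.016) and -0.10 ± 0.10 (adjusted p = 0.54), the first lost without CAMA-1 DMSO replicate 3 (0.2), CAMA-1 abemaciclib replicate 1 (0.083), ZR-75-1 DMSO replicate 1 (0.055), ZR-75-1 DMSO replicate 3 (0.06) or ZR-75-1 abemaciclib replicate 1 (0.22).

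Cells given DMSO alone already differed. Between the DMSO groups 17 of 28 members were higher in ZR-75-1 and 3 lower, beside 31.5% and 29.8% of all genes. The median member was 0.46 higher on the log2 scale. MT-TF was higher by 1.81 ± 0.12 (adjusted p = 2e-20), MT-ND3 by 1.08 ± 0.067 (adjusted p = 3.7e-22) and MT-ATP8 by 1.05 ± 0.089 (adjusted p = 3.1e-16). MT-CYB (-0.034 ± 0.084), MT-CO3 (0.032 ± 0.078) and MT-ND6 (0.12 ± 0.094) were not called, whereas MT-TL1, MT-TY and MT-TS2 were lower in ZR-75-1. Library-total scaling, or leaving out ZR-75-1 DMSO replicate 3, brought the number lower to 5. Line and any difference in handling between them cannot be told apart.

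Levels between members were compared per kilobase of transcript, on the scaling of all 18 libraries, as CPM per kilobase. A 3′-end kit reads mainly 1 end of each transcript, so this scale favours short transcripts. In CAMA-1 with DMSO MT-RNR2 (29222), MT-ND3 (28874) and MT-ATP6 (27531) were highest per kilobase. They were followed by MT-CO3 (14913) and MT-ATP8 (14864). In ZR-75-1 the order began with MT-ND3 (61177), ahead of MT-RNR2 (41967), MT-ATP6 (31407) and MT-ATP8 (30733). MT-ND6 was the lowest mRNA in both lines, at 372 and 404 CPM per kilobase, and MT-ND5 the next lowest, at 1242 and 1887.

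The partners of the mitochondrial subunits that are encoded in the nucleus were lower more often than higher in CAMA-1. Of 70 tested nuclear subunits of complexes I, III, IV and V, 10 rose and 33 fell with abemaciclib, and 6 rose and 38 fell with palbociclib. Of all genes 20.3% rose and 20.1% fell with abemaciclib, and 18.4% and 18.7% with palbociclib. The median log2 fold change of the 70 was -0.14 and -0.23, while that of the 13 mitochondrial mRNAs was 0.95 and 0.86. NDUFS6 of complex I fell by 0.76 ± 0.068 and 0.65 ± 0.067 on the log2 scale and CYC1, cytochrome c1 of complex III, by 0.55 ± 0.077 and 0.50 ± 0.076, while COX6C of complex IV rose by 0.49 ± 0.061 and 0.58 ± 0.061. In ZR-75-1 17 rose and 13 fell with abemaciclib, and 28 rose and 4 fell with palbociclib, beside 17.9% and 18.3% of all genes with the former and 14.5% and 13.4% with the latter. The abemaciclib counts lay near that background. The medians were 0.0043 and 0.14, beside -0.16 and -0.22 for the mitochondrial mRNAs. NDUFB3 of complex I rose by 1.10 ± 0.14 and 0.45 ± 0.15, and UQCR11 of complex III by 0.56 ± 0.069 and 0.55 ± 0.069. Within complex I 6 of 35 rose and 10 fell with abemaciclib, among the latter NDUFB10 by 0.57 ± 0.074 and NDUFS6 by 0.56 ± 0.074, and 12 rose and 3 fell with palbociclib. In the interaction test 15 of the 70 responded higher in ZR-75-1 and 3 lower with abemaciclib, and 32 and 2 with palbociclib. Of all genes 8.19% responded higher and 10.0% lower with abemaciclib, and 10.0% and 10.3% with palbociclib. The nuclear subunits thus leaned to the opposite side from the mitochondrial mRNAs.

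**Figure D5:**
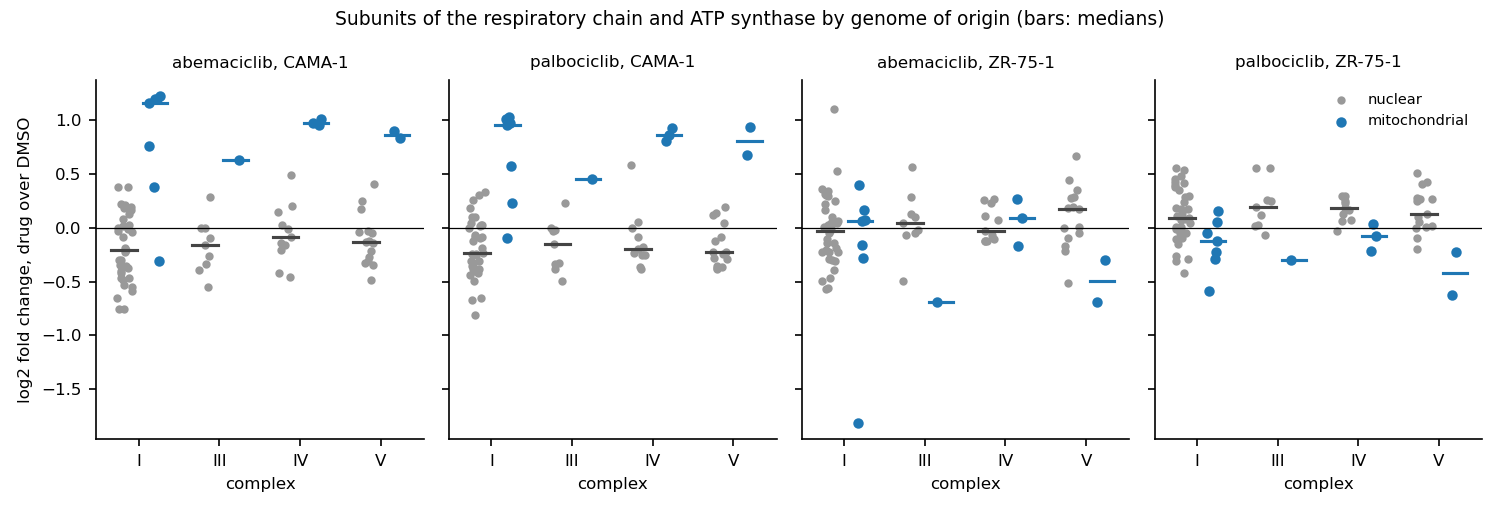
Log2 fold change of drug over DMSO (vertical axis) for nuclear (grey) and mitochondrial (blue) subunits of complexes I, III, IV and V (horizontal axis), 1 panel for each drug and line, with bars at the medians. In CAMA-1 the mitochondrial medians lie above 0 and the nuclear ones below it. In ZR-75-1 the overall medians were -0.16 and -0.22 for mitochondrial and 0.0043 and 0.14 for nuclear subunits.

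Nuclear genes that make or turn over mitochondrial RNA were read as lists beside the shares of all genes. Those that fell were 20.1% and 18.7% in CAMA-1 with abemaciclib and palbociclib, then 18.3% and 13.4% in ZR-75-1. Those that rose were 20.3% and 18.4% in CAMA-1, then 17.9% and 14.5% in ZR-75-1. In the list for mitochondrial DNA transcription and replication, 0 of 17 rose and 3 fell in CAMA-1 with each drug. The ZR-75-1 counts were 0 of 16 higher and 2 lower with each. These falls lay near or below the shares of all genes, and the rises below them. At an unadjusted p under 0.05 edgeR gave 0 and 0 rises in CAMA-1 against 1 and 1 in ZR-75-1. TFAM, which packages mitochondrial DNA and starts its transcription, fell in all 4 comparisons, with log2 fold changes of -0.53 ± 0.11 and -0.30 ± 0.11 in CAMA-1 against -0.32 ± 0.11 and -0.46 ± 0.11 in ZR-75-1. SSBP1, the single-strand DNA-binding protein of mitochondria, also fell in all 4, from -0.83 to -0.50. POLRMT, the mitochondrial RNA polymerase, was called in none, with values between -0.092 and 0.43. MRPL12 fell in CAMA-1 by 0.63 ± 0.16 and 0.73 ± 0.16.

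Among genes for RNA processing and turnover, 2 of 27 rose and 4 fell in CAMA-1 with abemaciclib, and 2 and 5 did so with palbociclib. In ZR-75-1 the numbers were 5 and 3 of 26, then 2 and 2. All of these lay near or below the shares of all genes given above. LRPPRC, which with SLIRP stabilises mitochondrial mRNAs, was called lower with palbociclib in ZR-75-1 (-0.31 ± 0.12) and in no other comparison with DMSO. SLIRP fell in CAMA-1 (-0.42 ± 0.078 and -0.37 ± 0.077) and gave -0.20 ± 0.081 and 0.080 ± 0.079 in ZR-75-1. REXO2, an exonuclease for short RNAs, rose in CAMA-1 (0.87 ± 0.15 and 0.91 ± 0.15), and RPUSD3, a pseudouridine synthase for mitochondrial RNA, fell there (-0.87 ± 0.13 and -0.72 ± 0.13). NSUN4, a methyltransferase for the small rRNA, rose in CAMA-1 with both drugs (0.81 ± 0.23 and 0.62 ± 0.23) and in ZR-75-1 with abemaciclib (0.86 ± 0.22). Of 7 tested regulators of mitochondrial biogenesis, 1 rose and 2 fell in CAMA-1 with abemaciclib, and 0 and 2 did so with palbociclib. In ZR-75-1 the numbers were 0 and 1, then 1 and 1. With so few genes these counts cannot be set apart from the shares of all genes. edgeR gave 0 rises at an unadjusted p under 0.05 in CAMA-1 with palbociclib and 0 in ZR-75-1 with abemaciclib. NRF1, a transcription factor for respiratory chain genes, fell in CAMA-1 (-0.92 ± 0.29 and -1.04 ± 0.29).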

How the data were processed

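RNA from 18 libraries, 3 for each of DMSO, abemaciclib and palbociclib in CAMA-1 and ZR-75-1, was measured by Lexogen QuantSeq 3′-end sequencing. Per the study's methods and the submitters' processing notes, the authors trimmed reads with BBDuk, aligned them to hg38 with STAR 2.7.5b and counted them per gene with featureCounts 2.0.1 on GENCODE annotation. The deposited values are raw counts per gene, with 2308442 to 4146549 counts per library. Strand setting, treatment of reads with several matches and use of molecular identifiers were not given in the sources used here, and the labels and methods name different strands for the kit. A 3′-end kit counts near 1 end of each tailed transcript, so poly(A) tailing bears on every value. Intervals cover counting and library error only.

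Groups were taken from the labels, which give no batch. All 18 count columns matched a sample by name. Counts were tested on the whole table with edgeR 4.0.16 in R 4.3.3 (filterByExpr, TMM, quasi-likelihood F test, two-sided), in 1 fit of 9 libraries for each line (11053 genes for CAMA-1, 11017 for ZR-75-1). Interactions and the DMSO groups of the lines used 1 fit of 18 libraries (11987 genes). P-values were Benjamini-Hochberg adjusted over all genes tested, with calls at adjusted p under 0.05, and log2 fold changes are given with their SE. Shares and ratios of counts were compared by exact two-sided permutation tests over libraries (scipy 1.17.1, Python 3.11.15). The fits were tested on simulated data first. Nuclear copies were aligned with Biopython 1.88.

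Alternatives were RLE, upper-quartile, library-total and nuclear-gene scaling, no filter, DESeq2 1.42.0, a block on the replicate number, all 18 libraries in the fits within a line, and each library left out, together with other numerators and denominators of the shares. The members and gene lists were chosen with earlier results of these data known. Members whose mean count in a line reached 10 are described. Values per library are given for the largest and smallest log2 fold changes and for members that moved against the mitochondrial total. From the lists TFAM, POLRMT, LRPPRC and SLIRP were named throughout, with up to 3 called genes of largest absolute change per list and line. Stop codon groups and positions were chosen after the values were seen.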

Additional observations from a re-analysis of the deposited data

Results flagged for a closer look

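The drug response of these transcripts differed between the lines by the interaction test of edgeR over 18 libraries, for 20 members with abemaciclib and 17 with palbociclib. Values are log2 fold changes of ZR-75-1 with those of CAMA-1 subtracted, on TMM-normalised counts, and all of them were below 0.

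With abemaciclib the complex I mRNAs gave -0.85 for MT-ND1, -1.02 for MT-ND2, -1.16 for MT-ND3, -1.07 for MT-ND4, -1.39 for MT-ND5 and -1.53 for MT-ND6, and -0.33 for MT-ND4L. Cytochrome b and the oxidase subunits gave -1.34 for MT-CYB, -0.71 for MT-CO1, -1.21 for MT-CO2 and -0.90 for MT-CO3. The ATP synthase subunits gave -1.61 for MT-ATP8 and -1.16 for MT-ATP6, and the rRNAs -0.38 for MT-RNR1 and -0.48 for MT-RNR2. Among the tRNA genes the values were -1.66 for MT-TI, -1.44 for MT-TT, -2.22 for MT-TQ, -1.63 for MT-TS1 and -0.94 for MT-TP. That of MT-TI was no longer called without CAMA-1 DMSO replicate 3 (0.05) or ZR-75-1 DMSO replicate 3 (0.096), where the adjusted p is in parentheses, and that of MT-TT without CAMA-1 DMSO replicate 1 (0.07), CAMA-1 DMSO replicate 3 (0.055), CAMA-1 abemaciclib replicate 3 (0.057) or ZR-75-1 DMSO replicate 1 (0.086).

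With palbociclib the complex I mRNAs gave -1.04 for MT-ND1, -1.10 for MT-ND2, -1.004 for MT-ND3, -0.88 for MT-ND4, -1.26 for MT-ND5 and -0.52 for MT-ND6. Cytochrome b and the oxidase subunits gave -0.78 for MT-CYB, -0.91 for MT-CO1, -1.17 for MT-CO2 and -0.85 for MT-CO3. The ATP synthase subunits gave -1.59 for MT-ATP8 and -0.93 for MT-ATP6, the rRNAs -0.40 for MT-RNR1 and -0.59 for MT-RNR2, and the tRNA genes -1.31 for MT-TQ, -1.18 for MT-TD and -1.53 for MT-TT. MT-TQ was no longer called without CAMA-1 DMSO replicate 3 (0.097), CAMA-1 palbociclib replicate 3 (0.088), ZR-75-1 DMSO replicate 1 (0.17) or ZR-75-1 palbociclib replicate 1 (0.12). For MT-CYB, MT-ATP8, MT-ATP6, MT-CO2, MT-ND4, MT-ND5 and MT-TD the palbociclib change was called in opposite directions in the 2 lines, whereas for MT-ND1, MT-ND2, MT-ND3, MT-CO1 and MT-CO3 it was called higher in CAMA-1 and not called in ZR-75-1. Of the former, MT-ATP8 alone stayed called lower in ZR-75-1 whichever library was left out; without DMSO replicate 3 none of the others was called there, and the CAMA-1 call of MT-TD was lost without DMSO replicate 1 (0.084).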

How the results depend on the processing

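Of 1087 values that recomputed the 143 called member results under the settings over all libraries, 1043 kept direction and call, 44 kept direction only and 0 reversed. Leaving out 1 library gave 1080 values, of which 983, 97 and 0 did so. In CAMA-1 the mitochondrial share had log2 ratios of 0.66 for abemaciclib and 0.58 for palbociclib. The former was 0.79 for mRNAs alone and 0.79 without the rRNA genes. Leaving out 1 library gave 0.62 to 0.70 and 0.54 to 0.62 in CAMA-1, and -0.14 to 0.048 and -0.18 to 0.0057 in ZR-75-1.

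In CAMA-1 the number of members lower with abemaciclib was 1 in place of 2 with no filter, scaling on nuclear genes, DESeq2, the replicate block or all 18 libraries in the fit, and 0 to 2 when 1 library was left out. With palbociclib 1 was lower under library-total scaling. Between the drugs in CAMA-1 8 were higher with abemaciclib without the filter, 0 with DESeq2, 1 in the fit of all 18 libraries and 0 to 7 with 1 library left out. In ZR-75-1 DESeq2 gave 2 higher and 5 lower with abemaciclib, 4 lower with palbociclib, and 3 higher and 5 lower between the drugs. Leaving out 1 library gave 2 to 8 higher and 5 to 11 lower with abemaciclib, 2 to 10 lower with palbociclib and 3 to 6 higher between the drugs. The palbociclib interaction then had 0 to 2 members higher. Between the DMSO groups 5 were lower under library-total scaling, and 3 to 5 with 1 library left out. With mRNAs as the denominator, 5 members had palbociclib shares below every DMSO library in ZR-75-1. The causes of these differences were not tested.

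Replicate numbers did not pair the samples: same-numbered libraries correlated at -0.077 to 0.013 in CAMA-1 and -0.030 to 0.0074 in ZR-75-1 (9 pairs each, none above 0.1). The fit with the replicate block gave 21 rises and 1 fall with abemaciclib for CAMA-1, 22 rises and 0 falls with palbociclib, and 4 and 8 with each drug in ZR-75-1.

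Depth limits the rare tRNA genes most, where 3 counts is the limit that a count of 0 allows in a library. With 3 libraries a group, a permutation test cannot go below p = 0.1.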

Other observations

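Nuclear DNA carries copies of mitochondrial genes, and the table listed 404 of them as rows of their own, of which 63 had a count and 10 a mean of at least 10. The latter, aligned to their source genes, were 93.0 to 99.1% identical. They received up to 25.5 counts per 100 of the source gene (MTCO1P12, a copy of MT-CO1), followed by 7.75 for MTATP6P1 and 2.25 for MTND1P23. Together the copies took 0.230% ± 0.0342 of counts in CAMA-1 with DMSO, 0.402% ± 0.0394 with abemaciclib and 0.361% ± 0.0152 with palbociclib. In ZR-75-1 they took 0.320% ± 0.0754, 0.292% ± 0.0434 and 0.257% ± 0.00946. Of 12 tested in CAMA-1, 10 rose with each drug and 0 fell. Of all genes there 20.3% rose and 20.1% fell with abemaciclib, and 18.4% and 18.7% with palbociclib. Of 10 tested in ZR-75-1, 1 was higher and 1 lower with abemaciclib, and 0 and 2 with palbociclib. The shares of all genes in ZR-75-1 were 17.9% and 18.3%, then 14.5% and 13.4%, and these few counts lay near them. How reads that match both a copy and its source were counted was not stated, and their part in these values was not tested.

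Across the 12 plus-strand mRNAs, the log2 fold change was set against the position of the gene along the strand. Spearman's rho was -0.48 with abemaciclib and -0.35 with palbociclib for CAMA-1. For ZR-75-1 it was -0.59 and -0.26. Between the drugs it was 0.035 and -0.65 for these lines. These genes share libraries and precursors and are not independent, so the values are a description.

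The 6 plus-strand mRNAs that carry a complete stop codon were also set beside the 6 that need added A bases. The median log2 fold changes of the former and the latter were 0.92 and 1.06 with abemaciclib in CAMA-1, 0.87 and 0.91 with palbociclib there. The corresponding ZR-75-1 values were -0.17 and 0.077 for abemaciclib, then -0.22 and -0.084 for palbociclib. Members of a shared mRNA are counted singly in both groups, and no test was made.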
